A study of Mus musculus with 3 samples.

Results

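Chemokine genes that link dendritic cells (DCs) to lymphocytes were examined. They were 7 of the 32285 genes counted, chosen by name and by no rule on measured values, with earlier results of these data known. These were the ligand Xcl1 with its receptor Xcr1, and the ligands Ccl17 and Ccl22 with their receptor Ccr4. The related receptor Ccr8 and the homing receptor Ccr7 completed the set. The cells were sorted as CD45+, a mark of immune cells, from sciatic nerves of NOD.AireGW/+ mice with neuropathy. In this genotype 1 copy of Aire, a gene by which the thymus displays self-antigens, carries the GW allele, and the NOD strain is itself prone to autoimmunity. All 3 libraries belonged to 1 group, with a single mouse in library 1 and in library 2, and 2 mice mixed in library 3 that cannot be told apart. The labels give no age, the study states that its mice were female, and no control group was analysed here, so every comparison was between cell classes of the same nerves.

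Chemokines are small secreted proteins that guide cells bearing matching receptors. XCL1 comes mainly from NK cells and CD8+ T cells and attracts type 1 conventional DCs (cDC1), which carry XCR1 and specialize in presenting antigen to CD8+ T cells. CCL17 and CCL22 are made by DCs, among other cells, and attract CCR4-bearing T cells, many of them Tregs. CCR8 marks Tregs and other CD4+ T cells of inflamed tissue. CCR7 follows CCL19 and CCL21 and brings naive T cells, B cells and mature DCs to lymph nodes.

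Cells were assigned to classes by marker genes, with none of the 7 genes in a marker set. Under these gates, libraries 1 to 3 held 7, 69 and 5 mature DCs, 20, 161 and 14 cDC1, and 0, 17 and 1 type 2 conventional DCs (cDC2). Lymphocytes were far more numerous, with 577, 800 and 186 conventional CD4+ T cells, 374, 483 and 112 Foxp3+ T cells, 772, 856 and 239 CD8+ T cells and 45, 69 and 13 NK cells. T cells with a UMI of an Ly49 receptor gene (Ly49 T cells) numbered 481, 397 and 127. Transcripts were counted by UMIs (unique molecular identifiers), and levels are given as CPM, the UMIs of a gene per 1000000 UMIs of its class. Of the marker genes kept out of the gates, the cDC1 markers exceeded the level of all other cells in 12 of 12 marker and library pairs, the mature DC markers in 3 of 3 and the Foxp3+ T cell markers in 9 of 9. The cDC2 markers did so in 2 of 3 and the Ly49 T cell markers in only 2 of 9. The Ly49 T class was mixed: in libraries 1 to 3, 38.7%, 32.0% and 15.7% of its cells carried a Cd8a UMI, 27.0%, 52.9% and 27.6% a UMI of Trdc, the gamma delta receptor constant gene, and 21.0%, 28.2% and 26.8% one of Ncr1, an NK cell receptor gene. Libraries differed in depth and makeup, with a median of 3985.5, 4659 and 1726 UMIs per cell. Library 2 held 1640 macrophages, against 5 in library 1 and 3 in library 3. Between 7 and 36 cell barcodes were shared by each pair of libraries.

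DC-marker cells that also met the T cell, B cell, NK or macrophage gate, for which 1 UMI of a Cd3 gene was enough, were set aside as mixed. The mixed class also took cells with other marker conflicts, such as T with B cell markers, and was not split by kind. In library 1 the whole mixed class held 77.8% of the Xcr1 UMIs and 86.4% of the Ccl22 UMIs. A revised gate was therefore added after the data had been seen, so its values are no independent check on Xcr1 or Ccl22. It accepts Cd3 UMIs and goes mainly by which DC marker list has the most genes detected. It also needs no Cd209a for cDC2, alters the marker lists and allows more macrophage-marker UMIs. It gave 12, 76 and 4 mature DCs, 80, 269 and 16 cDC1, and 32, 63 and 6 cDC2. Its mature DCs carried Cd3e at 437, 283 and 751 CPM, whereas Cd3e was at 0 under the main gate by construction. The part of T cell RNA in the revised values was not tested.

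Ccl17 and Ccl22 lie close together on chromosome 8 (mm10, GENCODE vM21), Ccl22 at 94745590 to 94751699 and Ccl17 at 94810453 to 94812036, both on the plus strand and 58753 bases apart. Both are protein coding. Of the receptors, Ccr4 (114490316 to 114504916, minus strand), Ccr8 (120092114 to 120094906, plus strand) and Xcr1 (123852315 to 123862029, minus strand) all lie on chromosome 9. Xcl1 lies on chromosome 1 (164931644 to 164935527, minus strand) and Ccr7 on chromosome 11 (99144196 to 99155077, minus strand).

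Promoter sequence was read for the members from the RefSeq table of GRCm38.p6, which held 6 of the 7. Ccl22 and Ccl17 are shown because they shared a TATA-like TTAAATA, in capitals below, at nearly the same distance from the RefSeq start (first base at -30 in Ccl22 and -29 in Ccl17). The runs cover positions -40 to -11.
Ccl22, chr8:94745644-94745673, plus strand: gagagagcgtTTAAATAtcagaccttcctg
Ccl17, chr8:94810413-94810442, plus strand: ctccagagaggTTAAATAggtcacctcaat
GENCODE starts Ccl22 upstream of this stretch, so the start itself differs between annotations. The TTAAATA, picked after these promoters had been read, stood in 4.5% of 32817 promoters of the same length on either strand. Of the other motifs searched on both strands, an AP-1-type TGANTCA matched in 1 member, Ccr4, at -143, and stood in 7.81% of all promoters. An NF-kB-type motif, GGGA and TTCC with any 2 bases between (1.47% of promoters), and an NFAT-type GGAAAANNG (5.74%) matched in 0 members.

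In the DCs, Ccl17, Ccl22 and Ccr7 were highest in the mature class, and Xcr1 was held by cDC1. Ccl17 was scarce, with 3, 125 and 3 UMIs in all cells of libraries 1 to 3, so its pattern rests on library 2. There, 69 mature DCs held 47 Ccl17 UMIs, or 89.3 CPM (exact Poisson 95% interval 65.6 to 119), and 161 cDC1 held 23, or 13.2 CPM (8.35 to 19.8). This was 6.78-fold more in mature DCs (4.04 to 11.7, counting error only). The 17 cDC2 held 0 Ccl17 UMIs, which allows up to 27.9 CPM at 3 counts. Libraries 1 and 3 held 0 Ccl17 UMIs in their 7 and 5 mature DCs, and 1 and 2 UMIs in cDC1, too few to give a direction. Outside DCs and mixed cells no class held more than 4 Ccl17 UMIs in a library.

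Ccl22, with 44, 202 and 8 UMIs in all, was detected in mature DCs of every library. It stood at 58.0 CPM (4 UMIs) in library 1, 167 CPM (88 UMIs, 134 to 206) in library 2 and 233 CPM (3 UMIs) in library 3. The cDC1 of library 2 held 49 UMIs, or 28.1 CPM (20.8 to 37.1), while those of libraries 1 and 3 held 0. In library 2 the ratio of mature DCs to cDC1 was 5.96 (4.16 to 8.63). Mature DCs were thus above cDC1 in each of the 3 libraries under the main gates, although 2 of the 3 rest on at most 4 UMIs. With the revised gates, library 3 held 2 UMIs in 4 mature DCs and 4 UMIs in 16 cDC1. That ratio of 3.24 (0.293 to 22.6) does not settle a direction. Outside DCs and mixed cells no class held more than 3 Ccl22 UMIs in a library.

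A few cells carried most of both ligands. In library 2, 11 of 69 mature DCs held a Ccl17 UMI and 22 held a Ccl22 UMI, with up to 20 and 29 UMIs in 1 cell. One cDC1 held 42 of the 49 Ccl22 UMIs of its class, and 1 held 13 of the 23 Ccl17 UMIs. In library 2 the 2 ligands fell largely in the same cells: 10 of the 11 Ccl17+ mature DCs also held Ccl22 (90.9%), against 12 of the 58 without Ccl17 (20.7%). In cDC1 of library 2 all 4 Ccl17+ cells held Ccl22, against 2 of 157 others. The 1 and 2 Ccl17+ cDC1 of libraries 1 and 3 held 0 Ccl22 UMIs. The Ccl17+ mature DCs were not deeper, with a median of 7354 UMIs against 8340.5. Ccr7 was detected in 21 of the 22 Ccl22+ mature DCs (95.5%) and in 26 of the 47 without Ccl22 (55.3%). The shares of this paragraph describe cells of library 2 alone, and no test was made.

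Ccr7 set mature DCs apart most widely. It stood at 406 CPM (28 UMIs in 7 cells), 3355 CPM (1765 UMIs in 69 cells) and 1551 CPM (20 UMIs in 5 cells) in libraries 1 to 3. In cDC1 it stood at 0, 39.5 and 43.5 CPM. Mature DCs were higher by at least 32.8-fold in library 1 (against 3 counts), 84.9-fold in library 2 (66.7 to 110.0) and 35.6-fold in library 3 (11.9 to 143). Although they were 0.836% of the cells of library 2, mature DCs held 21.3% of its Ccr7 UMIs. In libraries 1 and 3 they held 0.385% and 1.19%.

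Mature DCs were tested against the mean of cDC1 and cDC2 with edgeR across 9801 genes, of which 5.2% were called at an adjusted p under 0.05. Of the 7 members, 3 were called, all higher: Ccr7 (adjusted p = 2.44e-07), Ccl17 (adjusted p = 0.00629) and Ccl22 (log2 difference 3.65 ± 0.91 SE, adjusted p = 0.0234). No fitted size is given for Ccr7 and Ccl17, since the cDC2 sum in the fit, that of library 2, held 0 UMIs of either. That sum held 1 Ccl22 UMI in 17 cells (9.32 CPM, 0.236 to 51.9), so the fitted Ccl22 size is poorly bounded. Only library 2 had the 10 mature DCs and 10 cDC2 that a sum required, so this fit takes single sums and assumes that they vary like the other classes. DESeq2 kept Ccr7 but neither ligand (adjusted p = 0.570 for Ccl17 and 0.911 for Ccl22). With the revised gates, which give sums in more than 1 library, Ccl22 was higher by 4.15 ± 0.49 (adjusted p = 8.45e-07) and Ccr7 by 5.41 ± 0.53 (adjusted p = 5.27e-10). Ccl17 did not pass the filter on low counts. The revised gates were added after the Ccl22 counts had been seen, so its call there is no independent support. Under these gates Ccr7 stood at 1709, 3540 and 375 CPM in mature DCs against 118, 27.1 and 377 CPM in cDC2, so that library 3, with 4 mature DCs and 6 cDC2, showed no difference (ratio 0.996, 0.324 to 2.62).

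Most other maturation genes were also higher in the mature DCs of library 2, the only mature DC sum in the fit, so that the calls take their spread from the other classes. Of 30 maturation genes that no gate used, 29 were tested, 24 were higher and 0 lower, with a median log2 difference of 2.67 against 0.17 over all genes. The largest were Socs2, Cd63, Il12b, which encodes a subunit of IL-12 and IL-23, and Cd200, an inhibitory ligand. Il12b stood at 532 CPM in mature DCs of library 2 against a mean of 3.44 CPM over the 4 cDC1 and cDC2 sums. Among 30 tested genes of 42 other chemokines and receptors, 4 were higher and 3 lower (median 0.01 against 0.17). The higher genes were Cxcr5, which follows CXCL13 into B cell follicles, Ccl5, Ccrl2 and Cxcl16 (1129 CPM against a mean of 367 ± 106, SD, n = 4 sums). The lower genes were Ccl2, Ccl6 and Ccr2.

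Xcr1 stood at 145, 136 and 76.2 CPM in cDC1 of libraries 1 to 3 (35, 238 and 7 UMIs). The intervals of the 3 libraries overlapped, at 101 to 201, 120 to 155 and 30.6 to 157. cDC2 held 0 Xcr1 UMIs, and mature DCs held 1, 5 and 0. In library 2, Xcr1 was thus at least 4.88-fold higher in cDC1 than in cDC2 and 14.3-fold higher than in mature DCs (6.06 to 44.6).

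The revised gates widened that bound, to at least 22.9-fold in library 1 and 25.4-fold in library 2 between cDC1 and cDC2. They placed 89.7% and 88.0% of all Xcr1 UMIs of libraries 1 and 2 in cDC1, and all 8 of library 3. After thinning every cell to 1000 UMIs, 8.41% ± 1.46 of cDC1 (SD, n = 3 libraries) held an Xcr1 UMI, against 0% of B cells, a class that should lack it. Unthinned, 47.2% ± 12.2 of cDC1 did, at medians of 11768.5, 10663 and 6699 UMIs per cell.

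In the test of cDC1 against cDC2, 0.959% of genes were called, and Xcr1 was the 1 of 7 members called (adjusted p = 0.00970), with no fitted size given because cDC2 was at 0. DESeq2 did not call it (adjusted p = 0.890), and it was lost without the cells of highest UMI count (adjusted p = 0.0513). The revised gates called it at an adjusted p of 3.20e-11, but they were added after the Xcr1 counts had been seen, so this is no independent support. Of the other chemokine genes, Ccl9 and Cxcl10, an interferon-induced ligand of CXCR3, were lower in cDC1 than in cDC2 and 0 were higher (median -0.02 against 0.30 over all genes).

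**Figure D1:**
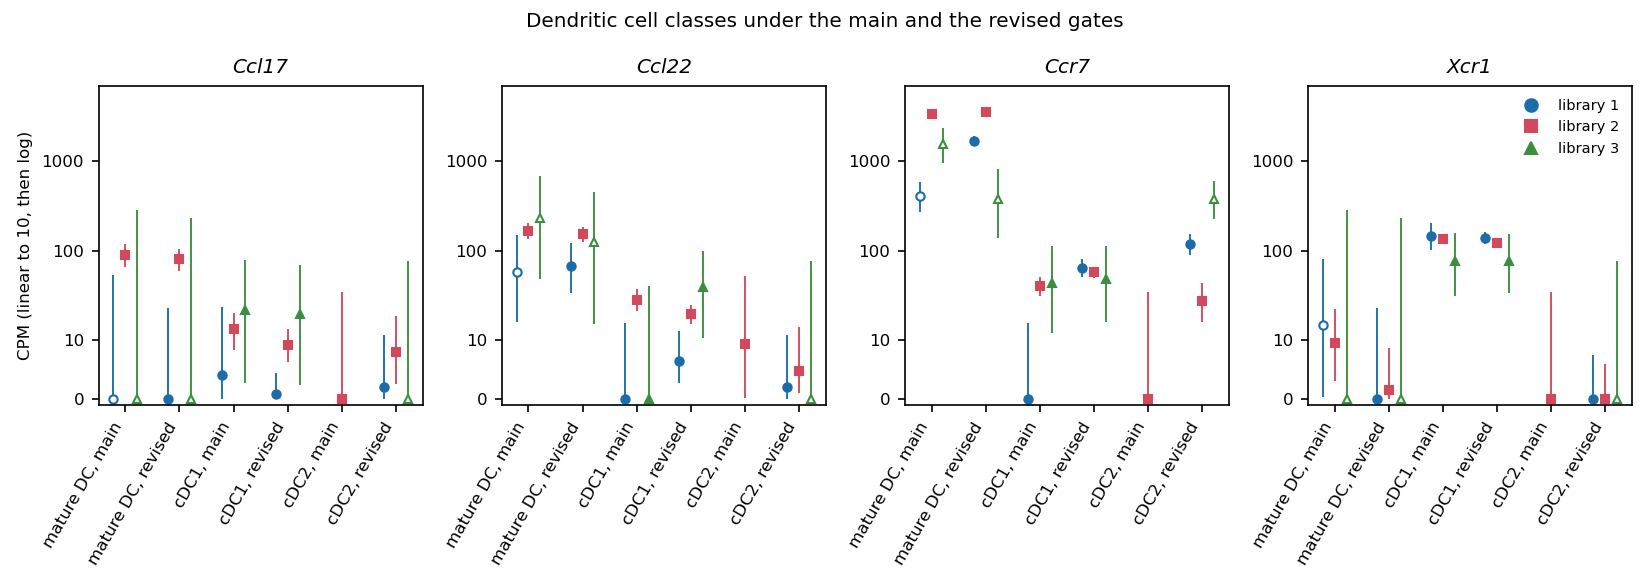
Level of Ccl17, Ccl22, Ccr7 and Xcr1 (CPM, linear up to 10 and logarithmic above) in 3 DC classes under the main and revised gates. Points are libraries, bars exact Poisson 95% intervals and open symbols classes under 10 cells, with classes under 4 cells left out. Ccr7 in mature DCs reached 3355 CPM in library 2, and Xcr1 was between 76.2 and 145 CPM in cDC1.

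Transcripts of the Xcr1 ligand lay in lymphocytes. Under the main gates Xcl1 was at 0 in cDC1, cDC2, plasmacytoid DCs and monocytes of every library, and at 2.85, 0 and 0 CPM in B cells. NK cells were highest, at 1460, 746 and 792 CPM (999 ± 400, SD, n = 3). Gamma delta T cells came next on average, at 1592 CPM in library 1 and 102 CPM in library 2. Ly49 T cells followed at 368, 740.3 and 482 CPM (530.0 ± 191) and CD8+ T cells at 399, 175 and 61.5 CPM (212 ± 172). Conventional CD4+ T cells stood at 74.5, 30.6 and 92.8 CPM, and Foxp3+ T cells at 72.0, 5.17 and 0 CPM. Neighbours in this order of means did not differ beyond their SD, and CD8+ T cells were above Ly49 T cells in library 1 and below them in libraries 2 and 3.

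By share of transcripts, Ly49 T cells held 25.9%, 39.8% and 53.8% of the Xcl1 UMIs as 12.5%, 4.81% and 8.28% of the cells. NK cells held 9.49%, 5.07% and 7.14%. CD8+ T cells held 36.9%, 13.6% and 8.26%, so that library 1 differed from the others here. In library 2, mixed cells held 23.5% of the Xcl1 UMIs, and 17 cells outside every gate held 487 UMIs, of which 353 lay in 1 cell. Of those 17 cells, 15 carried Nkg7, a gene of cytotoxic granules, and 14 carried Klrk1, which encodes the receptor NKG2D, against 6.59% and 15.02% of the other ungated cells.

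A few cells held most of the Xcl1 in CD8+ T cells. In CD8+ T cells 14.0%, 9.70% and 3.35% of cells held an Xcl1 UMI, and 4, 7 and 1 cells held at least 50% of the class's Xcl1, with up to 257 UMIs in 1 cell. In NK cells 66.7%, 62.3% and 69.2% of cells held a UMI, and 5, 7 and 3 cells held 50%. One gamma delta T cell of library 1 held 246 of the 254 Xcl1 UMIs of its class, and without it that class's level rested on 8 UMIs. After thinning to 1000 UMIs, 39.9% ± 5.91 of NK cells, 24.1% ± 7.66 of Ly49 T cells and 5.47% ± 3.49 of CD8+ T cells held an Xcl1 UMI (SD, n = 3), against 0.158% ± 0.274 of B cells. Ly49 T cells were above CD8+ T cells by this measure in 3 of 3 libraries, library 1 included (15.4% against 8.78%). Thinning left out 4, 0 and 0 NK cells, 47, 7 and 4 Ly49 T cells and 100, 12 and 19 CD8+ T cells.

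**Figure D2:**
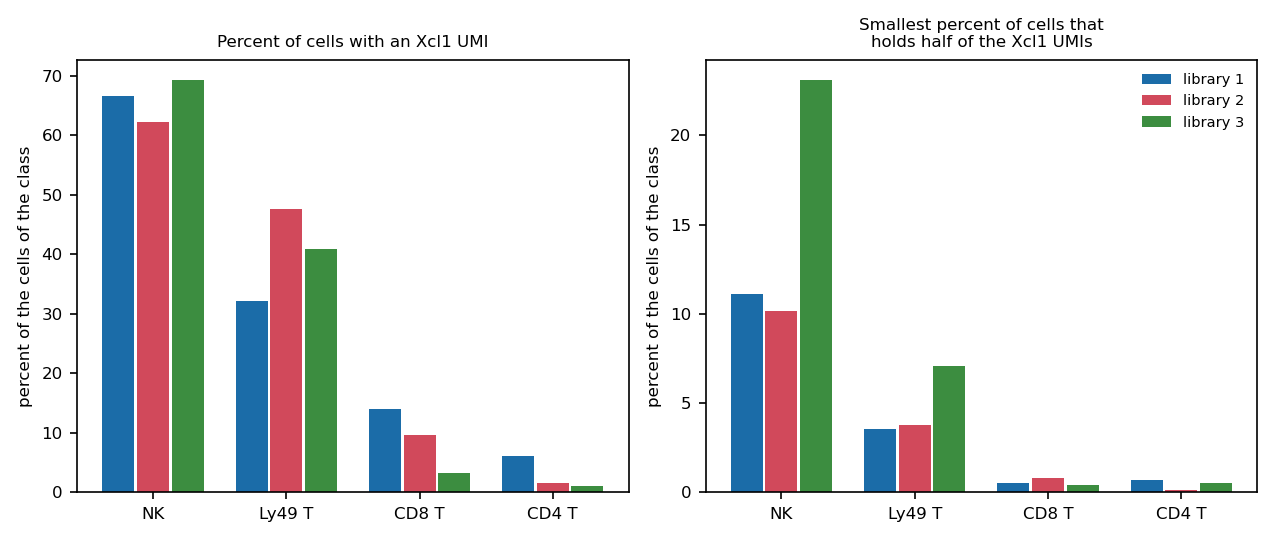
Percent of cells with an Xcl1 UMI (left, unthinned) and the smallest percent of cells that together hold 50% of the Xcl1 UMIs (right), in 4 classes of each library. NK cells were at 62.3% to 69.2% on the left, and CD8+ T cells were under 1% on the right.

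In the edgeR tests Xcl1 was higher in NK cells than in CD8+ T cells by 2.20 ± 0.54 (log2, SE, adjusted p = 0.00850, higher in 3 of 3 libraries), with 1 of 7 members called against 8.93% of genes. It was higher in Ly49 T cells than in CD8+ T cells by 1.71 ± 0.51 (adjusted p = 0.0407, higher in 2 of 3 libraries), where 2 of 7 members were called, the other being Ccr8, against 7.15% of genes. Markers of NK and gamma delta T cells were also higher in the Ly49 class, with Ncr1 at 165, 145 and 152 CPM against 1.42, 0.569 and 0 CPM in CD8+ T cells and Trdc at 95.1, 194 and 150 CPM against 7.36, 6.54 and 6.65 CPM, and their part in the result was not tested. Xcl1 was higher in CD8+ than in conventional CD4+ T cells by 1.97 ± 0.59 (adjusted p = 0.0321, 2 of 3 libraries, 9.33% called). None of these was called by DESeq2 (adjusted p = 0.243, 0.478 and 0.586). Without library 3 the NK call was lost (adjusted p = 0.0618), and without library 2 or library 3 the Ly49 call was lost (adjusted p = 0.2405 and 0.2599). Between Foxp3+ and conventional CD4+ T cells Xcl1 differed by -1.17 ± 0.70, which did not pass (adjusted p = 0.519).

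Other genes of stimulated cytotoxic lymphocytes went in both directions between these classes. Of 17 such genes, 9 were higher in CD8+ than in CD4+ T cells and 0 lower, with a median of 0.96 against 0.00 over all genes. Among these were Gzma, Prf1, Gzmb, which encode killing proteins, and Ccl5 (24600 ± 7794 CPM against 2586 ± 284). In Ly49 T cells against CD8+ T cells 1 of 17 was higher, Prf1, and 2 were lower, Ccl3 (145 ± 115 against 340.3 ± 235 CPM) and Ifng, with a median of 0.20 against -0.03. Of the other chemokine genes there, 0 were higher and 2 lower, Ccl3 and Cxcr3 (median -0.48). In NK cells 3 were higher, Gzma (4633 ± 500 against 321 ± 209 CPM), Prf1 and Nr4a1, and 3 lower, Ccl3, Ifng and Ccl5, with a median of 0.51 against -0.12. Gzma was itself a gating gene of NK cells, so its difference was partly set by the gate. Of the other chemokine genes in NK cells, Cxcr4 was higher, and Cxcr6 and Cxcr3 were among 4 that were lower, with a list median of -1.95.

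**Figure D3:**
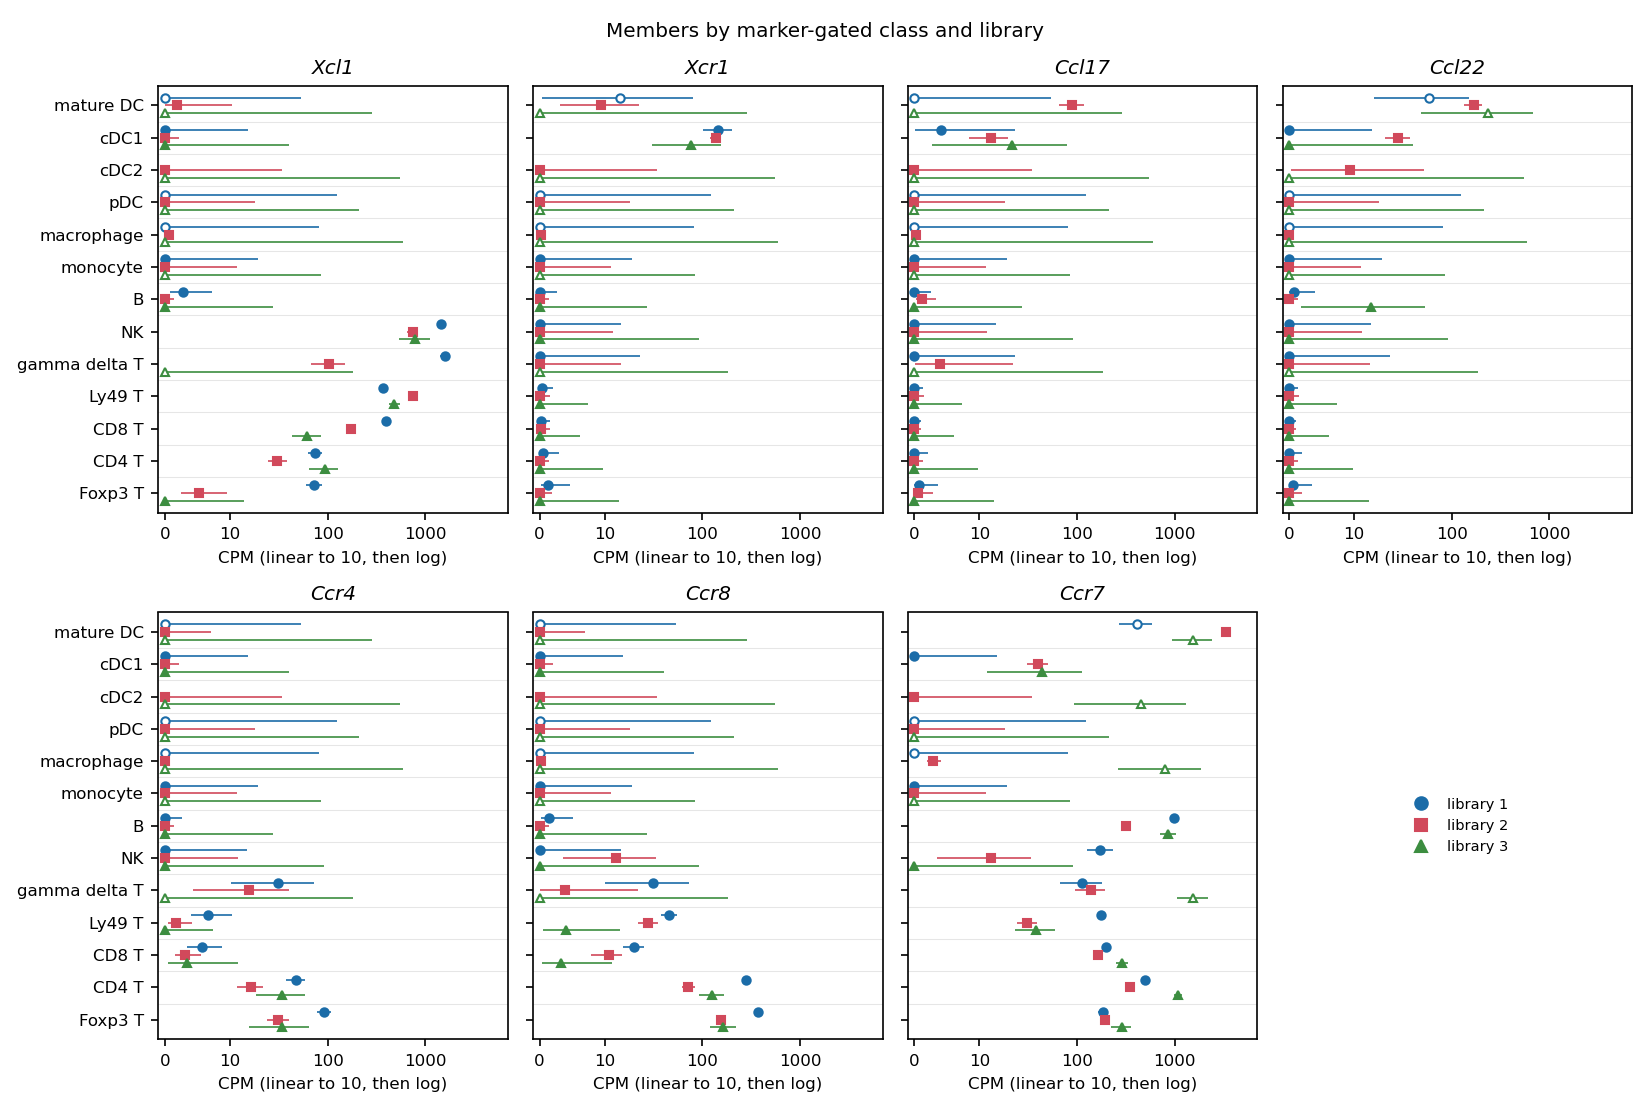
Level of each of the 7 genes (CPM, linear up to 10 and logarithmic above) in 13 marker-gated classes. Points are libraries, bars exact Poisson 95% intervals and open symbols classes under 10 cells. Xcl1 lay in NK and T cell classes, Xcr1, Ccl17 and Ccl22 in DCs, Ccr4 and Ccr8 in T cells, and Ccr7 in mature DCs, B cells and T cells.

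Ccr4, the receptor of both DC ligands, and Ccr8 were highest on average in Foxp3+ and conventional CD4+ T cells. Ccr4 stood at 92.6, 31.0 and 34.2 CPM in Foxp3+ T cells (144, 60 and 9 UMIs) and at 47.1, 16.2 and 34.5 CPM in conventional CD4+ T cells (86, 43 and 13 UMIs). It was at 5.66, 3.13 and 3.32 CPM in CD8+ T cells. Gamma delta T cells stood at 31.3 and 15.7 CPM in libraries 1 and 2 (5 and 4 UMIs). T cells outside all these subsets stood at 38.1, 18.0 and 13.8 CPM, in library 2 slightly above conventional CD4+ T cells. Under the main gates Ccr4 was at 0 in every DC class, macrophages, NK cells and B cells. Under the revised gates, which accept Cd3 UMIs, it reached 30.7 CPM (5 UMIs) in mature DCs and 12.2 CPM in cDC2 of library 1. After thinning, 6.47% ± 3.61 of Foxp3+ T cells held a Ccr4 UMI (SD, n = 3), against 0% of B cells.

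Ccr8 stood at 375, 156 and 164 CPM in Foxp3+ T cells and at 283, 72.1 and 125 CPM in conventional CD4+ T cells. CD8+ T cells were at 19.8, 11.1 and 3.32 CPM and B cells at 1.43, 0 and 0 CPM. Thus Foxp3+ T cells exceeded conventional CD4+ T cells in 3 of 3 libraries for Ccr8 and in 2 of 3 for Ccr4, and the means of these classes did not differ beyond their SD for either gene. After thinning, 15.8% ± 9.57 of Foxp3+ and 12.2% ± 6.89 of conventional CD4+ T cells held a Ccr8 UMI, against 0.158% ± 0.274 of B cells. Conventional CD4+ and Foxp3+ T cells together held 49.7%, 39.8% and 48.9% of the Ccr8 UMIs. Foxp3+ T cells were identified by a Foxp3 UMI, so the conventional class may hold Foxp3+ cells in which no UMI was captured.

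Between Foxp3+ and conventional CD4+ T cells 3.95% of genes were called by edgeR and 0 of the 7 members. The differences were 0.80 ± 0.24 for Ccr4 (adjusted p = 0.0731) and 0.60 ± 0.25 for Ccr8 (adjusted p = 0.235). DESeq2 also called 0 of the 7, with 321 genes called in all. Fitted on these 2 classes alone, Ccr4 and Ccr8 both passed, at 0.81 (adjusted p = 0.00897) and 0.62 (adjusted p = 0.00609). Over all alternatives Ccr4 ranged from 0.55 to 0.93 and Ccr8 from 0.33 to 0.78, always higher in Foxp3+ T cells. In the same comparison 8 of 19 activated Treg genes tested were higher and 1 lower (median 0.61 against 0.01 over all genes), led by Itgae, Tnfrsf9 (487 ± 148 against 102 ± 53.5 CPM), Klrg1 and Il2ra, the IL-2 receptor alpha chain. Among other chemokine genes, Ccr2 was higher (283 ± 117 against 133 ± 95.2 CPM) and Ccl3 lower (median -0.09 against 0.01).

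Against CD8+ T cells the receptors differed widely. Both were lower in CD8+ than in conventional CD4+ T cells, with a log2 difference of -3.42 ± 0.31 for Ccr8 (adjusted p = 1.29e-08) and -2.76 ± 0.32 for Ccr4 (adjusted p = 2.32e-06), each in 3 of 3 libraries. With Xcl1 and Ccr7, this made 4 of 7 members called, against 9.33% of genes. DESeq2 and the fit without the replicate block each called 2 of 7, with 689 and 276 genes called in all. Ccr8 was higher in Ly49 T cells than in CD8+ T cells by 1.21 ± 0.34 (adjusted p = 0.0273), at 45.7, 28.0 and 4.00 CPM against 19.8, 11.1 and 3.32 CPM, where library 3 rests on 2 UMIs in each class. In this comparison 0 members were called by DESeq2, without the replicate block or without library 2. The genes called in all fell from 701 to 442, 209 and 367 in these settings. Of the other chemokine genes, 6 were higher in CD8+ T cells, among them Ccl5, Ccl4 and Ccl3, and 3 lower, namely Ccl2, Ccr6 and Cxcr4 (median -0.37 against 0.00).

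The 2 receptors were detected partly in the same cells. In Foxp3+ T cells 47.4% and 37.2% of Ccr4+ cells of libraries 1 and 2, and 2 of 8 in library 3, held a Ccr8 UMI, against 44.4%, 29.2% and 22.1% of Ccr4- cells. In conventional CD4+ T cells the shares were 48.3%, 18.9% and 4 of 8 cells, against 30.6%, 14.9% and 14.0%. The Ccr4+ cells were mostly deeper, with medians of 3830, 3871 and 1899.5 UMIs against 3194, 2506.5 and 1902.5 in Foxp3+ T cells, and the part of depth in these shares was not tested.

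Ccr7 was the most broadly detected member. B cells stood at 992, 314 and 850.1 CPM and conventional CD4+ T cells at 493, 349 and 1074 CPM, both below the mature DCs of libraries 2 and 3 and above the 7 mature DCs of library 1. Foxp3+ T cells (185, 193 and 285 CPM) and CD8+ T cells (199, 162 and 289 CPM) were close to each other. Ly49 T cells stood at 175, 30.9 and 38.0 CPM and NK cells at 173, 13.03 and 0 CPM, so that for both library 1 lay above the other libraries. Macrophages, the class taken as background for this gene, held 2.90 CPM in library 2. After thinning, 55.2% ± 7.89 of B cells and 23.6% ± 10.3 of conventional CD4+ T cells held a Ccr7 UMI (SD, n = 3), against 0.251% of macrophages of library 2.

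Conventional CD4+ T cells exceeded CD8+, Foxp3+, Ly49 and NK cells in 3 of 3 libraries for Ccr7. CD8+ T cells were lower than conventional CD4+ T cells, with a log2 difference of -1.36 ± 0.43 (adjusted p = 0.0436), a call that DESeq2 did not make (adjusted p = 0.527) and that was lost without library 3 (-1.11, adjusted p = 0.212). Foxp3+ T cells differed by -1.46 ± 0.44, just over the threshold (adjusted p = 0.0612), and passed without library 1 or library 2 (adjusted p = 7.67e-04 and 0.0196) and on these classes alone (adjusted p = 5.25e-06). Against CD8+ T cells, Ly49 T cells differed by -1.41 (adjusted p = 0.0597) and NK cells by -1.52 (adjusted p = 0.146).

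**Figure D4:**
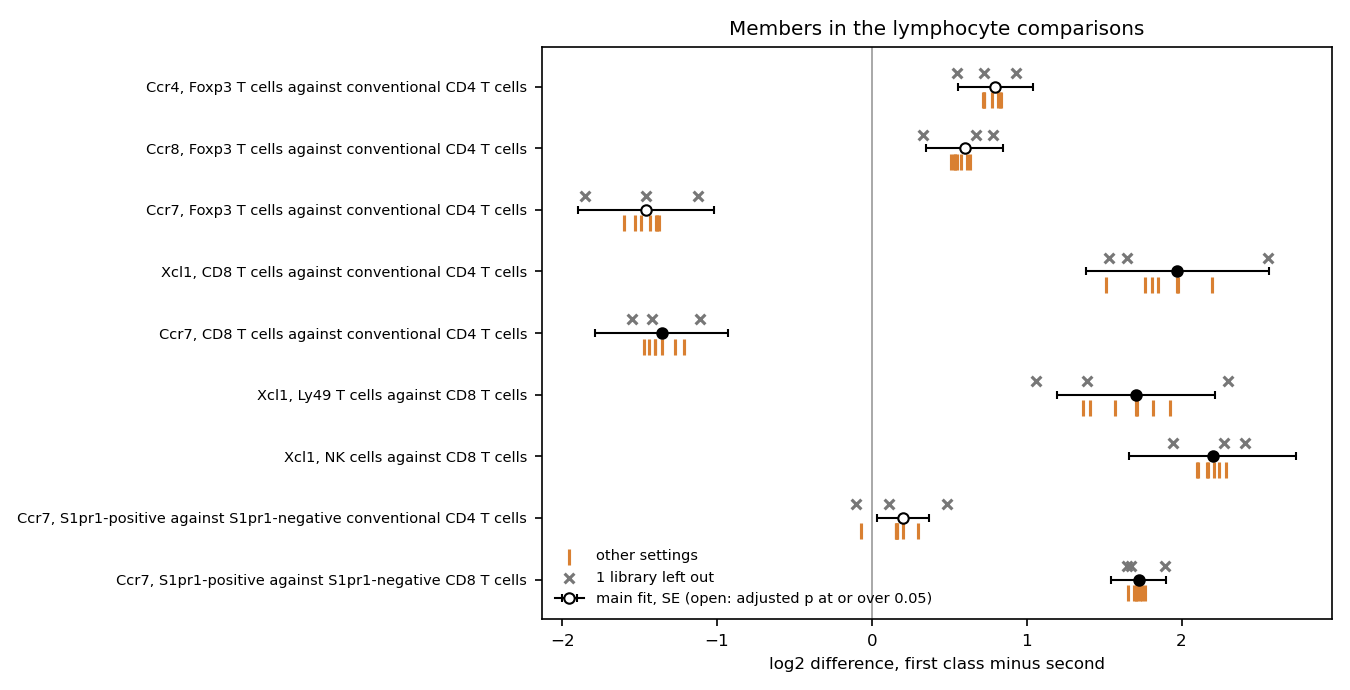
Log2 difference of the member genes between lymphocyte classes: the main edgeR estimate with its SE, the values with 1 library left out and the values under the other settings. Filled circles passed an adjusted p of 0.05. Of the results drawn, only Ccr7 in S1pr1+ against S1pr1- conventional CD4+ T cells crossed 0.

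To see whether Ccr7 went with the tissue-exit receptor S1pr1, CD8+ and conventional CD4+ T cells were split by detection of an S1pr1 UMI. S1PR1 draws lymphocytes out of tissues into lymph and blood. The S1pr1+ CD8+ T cells numbered 175, 133 and 29, with 844964, 512083 and 83322 UMIs in all, and the S1pr1- cells 597, 723 and 210, with 2688346, 3004465 and 518461. In CD8+ T cells, Ccr7 stood at 382, 408 and 840.1 CPM in the S1pr1+ cells against 141, 120.2 and 201 CPM in the S1pr1- cells. The 2 sets did not overlap. In conventional CD4+ T cells it stood at 607, 388 and 857 CPM against 412, 333 and 1149 CPM, higher in libraries 1 and 2 and lower in library 3. By share of cells with a Ccr7 UMI, S1pr1+ conventional CD4+ T cells were above S1pr1- cells in 3 of 3 libraries, at 43.1%, 36.7% and 42.3% against 20.4%, 24.5% and 36.6%. After thinning the shares were 28.9% ± 9.21 against 21.02% ± 11.2 (SD, n = 3). In CD8+ T cells they were 30.01% ± 18.9 against 10.3% ± 6.14.

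Of 7690 genes tested, 5.11% were called for the CD8+ split and 4.45% for the CD4+ split. Ccr7 was higher in S1pr1+ CD8+ T cells by 1.72 ± 0.18 (adjusted p = 4.38e-07), and DESeq2 also called it. In conventional CD4+ T cells the difference was 0.20 ± 0.17 (adjusted p = 0.652). The difference between the 2 T cell types was itself tested: it was 1.52 ± 0.24 (adjusted p = 0.00174), where 0.208% of genes, 16 in all, were called and Ccr7 was the 1 of 4 members called. It ranged from 1.16 to 1.99 when 1 library was left out and remained past the threshold each time.

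Xcl1 and Ccr8 went the other way. Xcl1 was lower in S1pr1+ CD8+ T cells, at 66.3, 46.9 and 0 CPM against 504, 196 and 71.4 CPM (-2.47 ± 0.37, adjusted p = 8.98e-05). Of the 37 Xcl1 UMIs in S1pr1- CD8+ T cells of library 3, 1 cell held 22. In S1pr1+ conventional CD4+ T cells Xcl1 stood at 25.1, 1.31 and 0 CPM against 109, 42.4 and 125 CPM (-2.81 ± 0.54, adjusted p = 0.00149). The S1pr1- level rests on few cells, since 1 cell held 44 of the 80 UMIs in library 2 and 1 held 33 of the 35 in library 3. Ccr8 was lower in S1pr1+ conventional CD4+ T cells, at 123, 26.1 and 51.6 CPM against 396, 90.7 and 150 CPM (-1.58 ± 0.22, adjusted p = 2.07e-05). For CD8+ T cells the Ccr8 difference was -1.57 ± 0.50 and did not pass (adjusted p = 0.0684). Ccr4 differed by 0.04 ± 0.37 in conventional CD4+ T cells (adjusted p = 0.991). Thus 2 of 4 members tested were called in each split, against 4.45% of genes in the CD4+ split and 5.11% in the CD8+ split. These were Ccr7, higher, and Xcl1, lower, in CD8+ T cells, and Xcl1 and Ccr8, both lower, in conventional CD4+ T cells. In the CD8+ split only 1 of 4 members, Ccr7, was called by DESeq2 or without library 1, so the Xcl1 call was lost. The genes called in all fell there from 393 to 229 with DESeq2 and to 70 without library 1. Without the replicate block 0 members were called in either split, where only 10 genes in all were called in the CD4+ split and 8 in the CD8+ split.

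**Figure D5:**
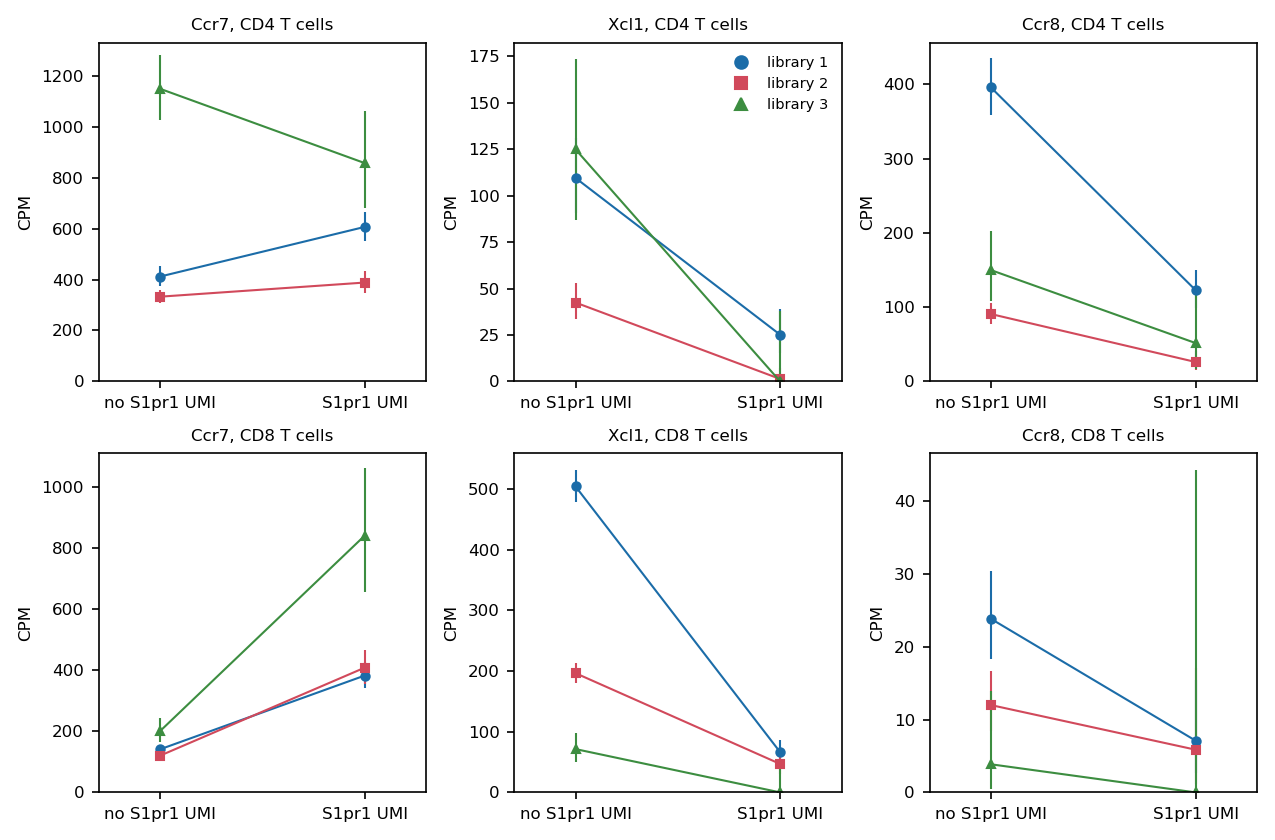
Ccr7, Xcl1 and Ccr8 (CPM, each panel with its own linear axis from 0) in T cells without and with an S1pr1 UMI, joined within each library, with exact Poisson 95% intervals. All 3 Ccr7 lines rose in CD8+ T cells, while 1 of 3, library 3, fell in CD4+ T cells.

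Recirculation genes other than S1pr1 went with the split in both T cell types. Of 11 tested, 7 were higher and 3 lower in S1pr1+ conventional CD4+ T cells, with a median of 1.45 against 0.00 over all genes. In CD8+ T cells 6 were higher and 1 lower, with a median of 1.45 against -0.02. Klf2, which encodes a factor that activates S1pr1, stood at 827 ± 152 CPM against 210.5 ± 46.6 in CD8+ T cells, and at 1021 ± 333 against 208 ± 54.5 in CD4+ T cells (SD, n = 3). The residency-associated Cxcr6 was lower in both (in CD8+ T cells 183 ± 144 against 586 ± 378 CPM). Of 17 other chemokine genes tested, 5 were lower in each split, Ccl3 and Ccl4 among them in both, and 0 and 1 were higher in CD4+ and CD8+ T cells (medians -0.89 and -0.15).

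The genes whose level was most like each member's were ranked by Pearson correlation of log2(CPM + 1) over 29 class and library sums, as a description, since sums of a library share depth. Xcl1 was closest to Apol7b (0.951), Gm14029 and Fhl2. Xcr1 was closest to Fam149a (0.986), Tlr3, which was itself a gating gene of cDC1, and Wdr86. Ccl17 was closest to Bcl2l14 (0.915), Stap2 and Tspan33, and Ccl22 to AY761185 (0.821), Arhgap28 and Gm46212. Ccr4 and Ccr8 were among each other's 3 closest genes (0.912), beside Trbv20 and Cd40lg for Ccr4 and Izumo1r and Il10 for Ccr8. Ccr7 was closest to Slamf1 (0.802), Krtcap3 and Pkmyt1.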

How the data were processed

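The data were 3 deposited matrices of raw UMI counts per gene and cell. The authors prepared 10x 5′ libraries and ran Cell Ranger on mm10, in version 5.0.1 for library 1 and 6.1.2 for the others per the file headers. Library 1 came with no gene list among the files used here and took the row order of the others (Spearman correlation of row totals 0.9501 and 0.9287). Cells under 300 UMIs, over 5000 genes or over 20% mitochondrial UMIs were left out, as in the study, leaving 3848, 8256 and 1533 cells. Totals were 22983991, 55120460 and 3399733 deposited UMIs. No doublet caller was run. Cells with markers of more than 1 lineage were set aside, and an alternative left out cells above the 95th percentile of UMIs.

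UMIs were summed per library and class, with sums under 10 cells left out (under 5 for the revised gates). For each comparison edgeR 4.0.16 (R 4.3.3) fitted the sums by quasi-likelihood with TMM, filterByExpr and the library as a block, since classes of 1 library came from the same mice, and p-values were adjusted by Benjamini-Hochberg across every gene in the fit. A call needed an adjusted p under 0.05. DESeq2 1.42.0 was an alternative. Against a class at 0 UMIs, folds were computed against 3 counts in that class and library. Intervals cover counting error only, at 95%. Thinning drew 1000 UMIs per cell without replacement, leaving out shallower cells. The fit was tested on simulated data. Replicates were libraries, so p-values measure the spread of class sums between these 3, estimated over all classes of a fit. In the main DC comparisons mature DCs and cDC2 had 1 sum each, so their spread was taken from other classes. The genes named from the lists were the 4 with the largest absolute log2 difference among those past the threshold in each direction, and the 3 closest genes by correlation. Some genes that this rule names are not reported here. The members, lists and gates were chosen with earlier results of these data known.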

Additional observations from a re-analysis of the deposited data

Results flagged for a closer look

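The effect of S1pr1 detection on Ccr7 differed between the T cell types: the log2 difference between S1pr1+ and S1pr1- cells was larger in CD8+ than in conventional CD4+ T cells by 1.52 (edgeR interaction term, adjusted p = 0.00174). Ccr7 was higher in S1pr1+ cells of CD8+ T cells in 3 of 3 libraries and of conventional CD4+ T cells in 2 of 3. By the share of cells with a Ccr7 UMI, it was higher in S1pr1+ cells of both types in 3 of 3 libraries.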

How the results depend on the processing

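The Ccr7 differences of mature DCs and its S1pr1 split in CD8+ T cells kept their call with DESeq2, no TMM, stricter gates and each library left out that gave a value. Without the replicate block, calls were lost for Ccl22 in mature DCs (3.86), Xcr1 in cDC1 (10.53), Xcl1 in CD8+ against CD4+ (1.81), Ly49 against CD8+ (1.41) and NK against CD8+ cells (2.17), Ccr7 in CD8+ against CD4+ T cells (-1.44), Ccr7 in the CD8+ S1pr1 split (1.76) and its interaction (1.83), and Ccr7 in the CD4+ split reversed (-0.07). With DESeq2 calls were lost for Ccl17 (4.63), Ccl22 (4.29), Xcr1 (5.64), Xcl1 in the same 3 comparisons (1.51, 1.93 and 2.24) and Ccr7 in CD8+ against CD4+ T cells (-1.40). Xcr1 without high-UMI cells was 10.45. The Ccl17 and Xcr1 values rest on a cDC2 sum at 0 UMIs, so they give a direction but no size. The DESeq2 SEs were 3.25 for Ccl17, 9.07 for Ccl22 and 7.54 for Xcr1. In Foxp3+ against conventional CD4+ T cells, calls were gained by Ccr4 without the low-count filter (0.78), on these classes alone (0.81) and without high-UMI cells (0.83), by Ccr8 on these classes alone (0.62), and by Ccr7 in these settings (-1.49, -1.38 and -1.39). With 1 library left out, Ccr7 ranged from -1.85 to -1.12 there, from -1.55 to -1.11 in CD8+ against CD4+ T cells and from -0.10 to 0.48 in the CD4+ split, reversing without replicate 1 (-0.10). Xcl1 ranged from 1.06 to 2.30 in Ly49 and from 1.94 to 2.41 in NK cells against CD8+ T cells. The causes were not tested. The revised gates gave no value for Ccl17, and leaving out library 2, or fitting these classes alone, gave none for the DC comparisons.

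The numbers of genes called (mature DC 510, cDC1 94, Foxp3+ 387, CD8+ 914, Ly49 701, NK 875, CD4+ split 342, CD8+ split 393) were 186, 20, 48, 276, 209, 427, 10 and 8 without the block. DESeq2 gave 326 for mature DCs, 442 for Ly49 and 229 for the CD8+ split. On the compared classes alone they were 887 (Foxp3+), 1407 (CD8+) and 1098 (Ly49). Without the low-count filter they were 191 (cDC1) and 589 (Foxp3+), with stricter gates 769 (mature DC) and with the revised gates 469 (cDC1). Without library 1 they were 199 (Foxp3+), 465 (CD8+), 467 (NK), 125 and 70 (splits), and without library 2 206, 545, 367 (Ly49), 425, 121 and 175. Without TMM the higher calls were 29 of 87 for cDC1 (45 of 94 with it), 271 of 964 for CD8+ (365 of 914) and 147 of 391 for the CD4+ split (166 of 342). Thinned to 500 UMIs, 32.4% of NK cells held Xcl1. With no thinning the shares were 66.1% for Xcl1 in NK cells, 47.2% for Xcr1 in cDC1, 31.9% for Ccl22 in mature DCs, and 14.4% for Ccr4 and 32.5% for Ccr8 in Foxp3+ T cells. With 7 and 5 mature DCs in libraries 1 and 3, Ccl17 and Ccl22 there rest on at most 4 UMIs.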
